A study of Mus musculus with 8 samples.

Results

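Mitosis is carried out by a set of proteins, many of them made afresh for each division: kinases that start it, a spindle of microtubules that holds the chromosomes, a checkpoint that delays separation, and a ring and midbody that part the daughter cells. This account covers 35 mouse genes of that set, chosen by name for their role in the mitotic spindle, the spindle checkpoint and cytokinesis. The choice was made with earlier results of these data known. All 35 were found once each among the 38115 genes counted, and all 35 passed the filter on low counts. RNA was sequenced from 8 tumors of Myc-CaP, a mouse prostate cancer cell line from a mouse whose prostate carried a MYC transgene under an androgen-responsive promoter, so all 8 tumors share that transgene. Cells of the androgen sensitive line (AS) or of its castrate resistant counterpart (CR) were placed in the anterior prostate lobes of male FVB mice that were intact or had been castrated by surgery before injection. Animal ages were not stated. There were 2 primary AS, 2 primary CR, 2 metastatic AS and 2 metastatic CR tumors, numbered 1 and 2 within each group (AS1, AS2, CR1, CR2). These numbers follow the order of deposit and pair no metastasis with a primary tumor, and the organ of each metastasis was not stated. Each of the AS and CR lines is one cell line, and the sources used here do not state how many mice gave the tumors, so p-values measure the spread between these tumors only.

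Transcription of most of these genes is low in resting cells and rises late in the cell cycle, through G2 into mitosis. In resting cells the DREAM complex holds many of them down, and in dividing cells B-MYB (Mybl2) and FOXM1 turn them on. The complex reads a short element called the cell cycle genes homology region (CHR), and a CCAAT box bound by NF-Y often lies nearby. In a tumor, the RNA of these genes is widely used as a measure of how much of the tissue is dividing. Since whole tumors were sequenced, fewer dividing cells and less of each RNA per dividing cell cannot be told apart.

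The letters of these elements were common in the members' promoters. RefSeq (GRCm38.p6) gave 35 promoters for 31 of the 35 genes, each of 300 bases, from 250 before the start of transcription to 50 after it. The members without an entry were Aurkb, Cdca2, Incenp and Tpx2. On both strands, TTTGAA, the usual CHR, was in 25 of the 35 promoters (71.4%) against 17.9% of all 32851 promoters. The variant TTCGAA was in 5.71% against 1.56%, and CCAAT was in 68.6% against 37.4%. A CHR of either form together with a CCAAT was in 65.7% of members' promoters and in 7.53% of all. CCAAT can overlap its own reverse, as in Ube2c below, and the promoters of a gene with more than one start share most of their bases. By gene, TTTGAA was in 21 of 31 members (67.7%) and in 20.2% of 27025 genes. A match describes the letters and is not a binding site.

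The 200 bases before the start are shown for the 3 members whose p-values were smallest in the comparison of metastatic with primary tumors (Ckap2l, Mki67 and Cit), for Ube2c with its run of CCAAT boxes, and for Ckap5 and Numa1, both among the genes that differed least. The last 3 were chosen after their values were seen. They are written 5′ to 3′ on the gene's strand, with TTTGAA and CCAAT in capitals, where TTCAAA and ATTGG are the same motifs on the other strand.
Ckap2l, chr2:129297213-129297412, minus strand: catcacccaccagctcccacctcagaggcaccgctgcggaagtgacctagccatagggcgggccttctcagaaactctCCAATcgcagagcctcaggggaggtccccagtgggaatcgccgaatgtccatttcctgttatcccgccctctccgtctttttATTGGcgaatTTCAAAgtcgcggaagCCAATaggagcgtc
Mki67, chr7:135716380-135716579, minus strand: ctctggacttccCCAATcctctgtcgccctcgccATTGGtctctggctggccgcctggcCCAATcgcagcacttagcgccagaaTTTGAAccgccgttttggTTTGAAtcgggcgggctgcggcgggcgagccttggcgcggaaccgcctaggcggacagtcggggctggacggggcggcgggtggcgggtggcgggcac
Cit, chr5:115845456-115845655, plus strand: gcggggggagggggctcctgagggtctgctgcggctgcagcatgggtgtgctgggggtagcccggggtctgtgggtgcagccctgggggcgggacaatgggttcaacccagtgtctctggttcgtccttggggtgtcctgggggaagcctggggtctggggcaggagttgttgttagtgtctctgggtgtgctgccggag
Ube2c, chr2:164769729-164769928, plus strand: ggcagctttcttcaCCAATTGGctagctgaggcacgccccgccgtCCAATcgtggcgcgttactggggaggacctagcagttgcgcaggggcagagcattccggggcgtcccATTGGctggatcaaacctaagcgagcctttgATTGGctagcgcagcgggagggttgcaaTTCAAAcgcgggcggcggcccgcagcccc
Ckap5, chr2:91526562-91526761, plus strand: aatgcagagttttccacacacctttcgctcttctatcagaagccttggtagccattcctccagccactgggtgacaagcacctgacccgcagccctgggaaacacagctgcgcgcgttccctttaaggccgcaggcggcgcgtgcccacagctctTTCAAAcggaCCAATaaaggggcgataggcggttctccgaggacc
Numa1, chr7:101969643-101969842, plus strand: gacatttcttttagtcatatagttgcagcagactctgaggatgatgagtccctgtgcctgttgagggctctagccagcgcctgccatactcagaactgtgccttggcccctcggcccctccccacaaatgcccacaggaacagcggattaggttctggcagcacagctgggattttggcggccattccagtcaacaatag
Ckap2l and Mki67 each hold 3 CCAAT boxes in these 200 bases, and Ube2c holds 5. Ckap5 has a TTTGAA near a CCAAT, and Cit and Numa1 have neither motif in these windows. Of the other genes that differed least, Bub3 has both motifs. The windows of Cit and Numa1 lie inside the genes as GENCODE annotates them.

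The comparison of metastatic with primary tumors asked whether mitotic genes differ in tumors that have spread. In 31 of the 35 genes the mean of the metastatic tumors was 1.65 to 3.17 times that of the primary tumors, and in the other 4 (Numa1, Bub3, Incenp and Ckap5) it was 0.986 to 1.17 times. No gene passed the adjusted threshold of 0.05 in edgeR's quasi-likelihood test over 17104 genes (0%), or in DESeq2, with 459 and 611 genes at an unadjusted p-value under 0.05, and the members' adjusted p-values in edgeR were 0.997 to 0.999. At an unadjusted p-value under 0.05, 15 of 35 members (42.9%) were higher in metastatic tumors and 0 lower, against 1.56% of all genes higher. The median log2 fold change was 1.04 over the members and -0.03 over all genes, and 33 members were above 0. The members' values move together from tumor to tumor, so the 15 are not 15 separate observations. With phenotype as a covariate the count was 22, against 2.75% of all genes, and 0 passed the adjusted threshold. The members added were Mad2l1, Bub1, Birc5, Nek2, Ckap2, Nusap1 and Tacc3. The count of 15 became 3 without metastatic CR2, 4 without primary AS1, 5 without primary AS2 or primary CR2, 9 without metastatic AS2 and 31 without primary CR1. Over all genes, in either direction, the 459 became 224, 313 and 331 without metastatic CR2, primary AS1 and primary AS2. It became 799, 506 and 944 without primary CR2, metastatic AS2 and primary CR1.

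**Figure D1:**
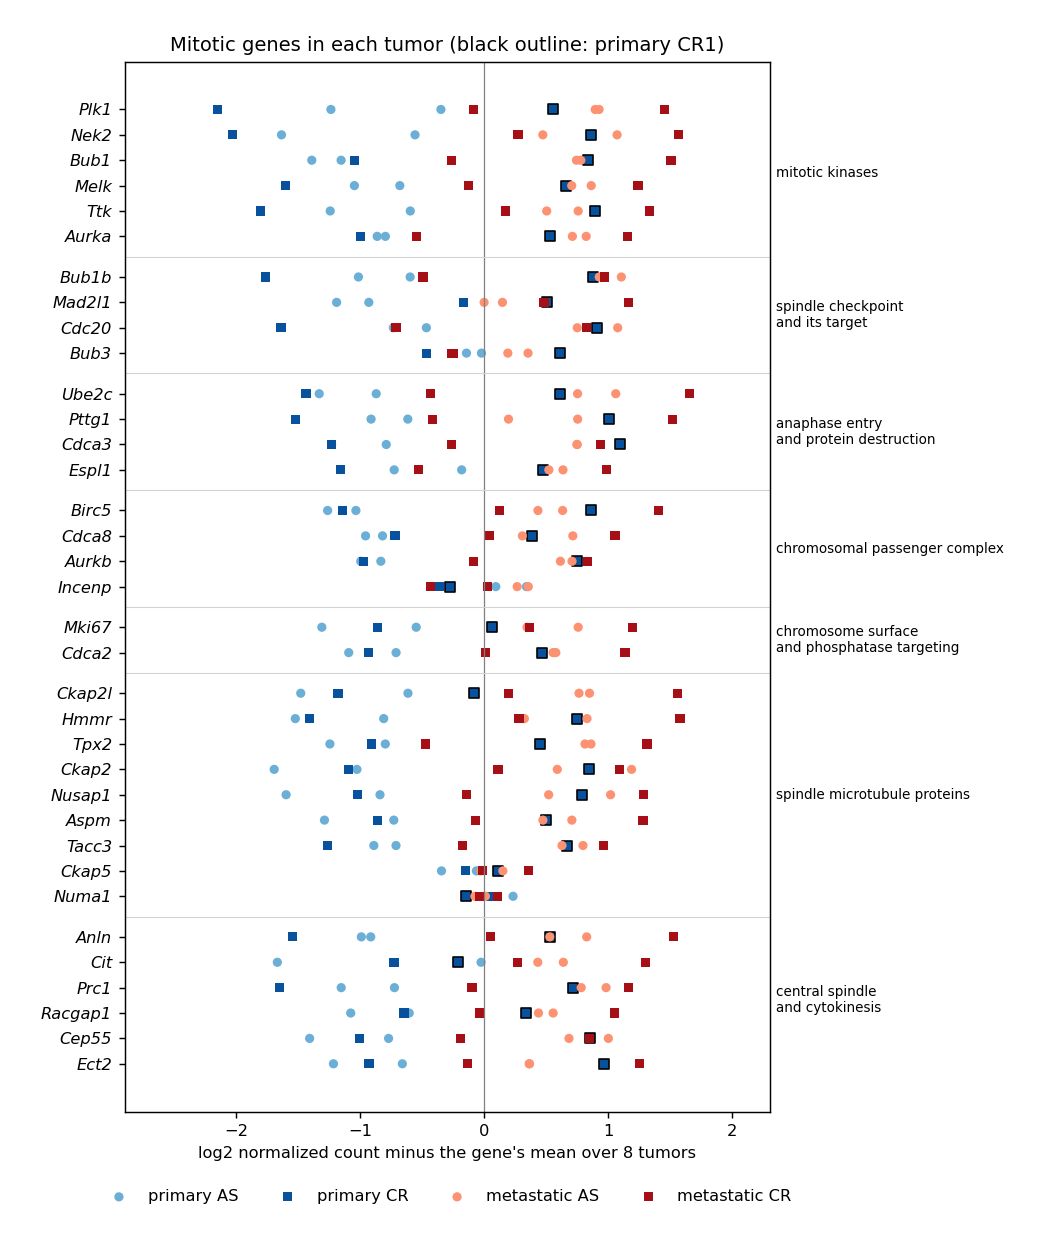
The log2 normalized count of each of the 35 genes in each of the 8 tumors, minus the gene's mean over the 8, by role. Circles are AS and squares are CR, blue is primary and red is metastatic. Primary CR1, outlined, lies among the metastatic tumors for most genes, and metastatic CR2 is the highest tumor in 27 of the 35.

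One primary tumor stood apart. Primary CR1 was the highest of the primary tumors in 32 of 35 members, and its ratio to the average of the other 3 had a median of 3.15 over the 35 (range 0.796 to 4.49). Metastatic CR1 was the lowest metastatic tumor in 31 of 35 members, and metastatic CR2 was the highest of all 8 tumors in 27. The same counts were not made over all genes. The mean log2 normalized count over all 35 genes was 8.35, 7.89, 9.53 and 7.87 in primary AS1, AS2, CR1 and CR2, and 9.57, 9.59, 8.86 and 10.05 in the metastatic tumors in the same order. On this mean primary CR1 lay between metastatic CR1 and metastatic AS1, and the other 3 primary tumors lay below all metastatic tumors. Without primary CR1 the members' median log2 fold change was 1.64, and 31 members had an unadjusted p-value under 0.05 (3.48% of all genes, higher in metastatic) but 0 passed the adjusted threshold in edgeR. DESeq2, an alternative chosen after seeing the data when run without that tumor, then called 26 members and 180 genes in all (0.977% of genes in the direction of the members), and called 0 with all 8 tumors. The study's text counts fewer primary tumors than the 4 labelled here and does not name the one not counted, so all were kept. Of the 16 possible pairs of a metastatic and a primary tumor, the metastatic tumor was higher in 13 or more pairs in 30 of the 35 genes.

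Total counts were 20905806 to 91886163 per tumor, and single members had 11 to 8743 raw counts. The 35 genes together took 0.0470% of protein-coding counts in primary CR2 and up to 0.161% in metastatic CR2. Other features of the libraries set them apart: Lars2 took 8.53% to 9.54% of all counts in metastatic CR1, primary CR2 and metastatic CR2 but 0.0259% to 0.140% in the other 5 tumors. Mitochondrial genes took 4.85% in primary CR1 and 12.9% to 28.3% elsewhere. The part of these features in the results below was not tested. Of the prostate epithelium markers given here, Foxa1, Hoxb13 and Krt8 were well counted in every tumor, with at least 126 reads, whereas Krt18, Epcam and Cdh1 had 0 to 41 reads.

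Below, each gene is given as its normalized count, the raw count scaled to a common library size, in the order AS1, AS2, CR1, CR2. Log2 fold changes are followed by their standard error.

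Among the 6 mitotic kinases, 3 had an unadjusted p-value under 0.05, and the median log2 fold change was 1.16. Plk1, which drives entry into mitosis, maturation of the centrosomes and later cytokinesis, had 113, 60.9, 211 and 32.3 in the primary tumors and 267, 273, 135 and 392 in the metastatic tumors. Its means were 104 ± 78.7 in primary and 267 ± 105 in metastatic tumors (SD, n = 4), a log2 fold change of 1.33 ± 0.55. Every metastatic tumor except CR1 was above every primary tumor. Aurka, the spindle pole kinase that Tpx2 activates, had 132, 139, 349 and 121 in the primary tumors and 395, 426, 165 and 536 in the metastatic tumors, a log2 fold change of 1.03 ± 0.45. Both AS primary tumors and primary CR2 lay close together, and primary CR1 lay above metastatic CR1. Melk, a kinase most abundant in mitosis, had 100.3, 77.8, 254 and 52.9 in the primary tumors and 262, 292, 147 and 380.0 in the metastatic tumors, with a log2 fold change of 1.14 ± 0.50 and the same overlap. The exact two-sided permutation p was 0.0571 for each of the 3. Nek2, which parts the centrosomes, Bub1, a kinase of the kinetochore, and Ttk, the kinase that starts the checkpoint, had log2 fold changes of 1.30 ± 0.61, 1.18 ± 0.56 and 1.05 ± 0.55 and did not pass the unadjusted threshold, which Nek2 and Bub1 passed with phenotype as a covariate.

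The 4 spindle checkpoint genes were Mad2l1, Bub1b and Bub3, whose proteins bind Cdc20 until all chromosomes are attached, and Cdc20 itself, the activator of the anaphase-promoting complex. None had an unadjusted p-value under 0.05 in this comparison, but Mad2l1 did with phenotype as a covariate. The log2 fold change was 0.81 ± 0.41 for Mad2l1, 1.02 ± 0.55 for Bub1b and 0.80 ± 0.54 for Cdc20. Bub3 differed least of the 4, with 1567, 1704, 2649.6 and 1255 in the primary tumors and 1975, 2211, 1440.0 and 1453 in the metastatic tumors. Its highest tumor was primary CR1, its groups overlapped throughout, and its log2 fold change of -0.02 ± 0.26 changed sign under limma-voom, the pairing blocks and DESeq2 without primary CR1, and with 3 tumors left out in turn.

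Of the 4 genes that act at anaphase entry and in protein destruction, only Ube2c passed the unadjusted threshold. Ube2c is the ubiquitin-conjugating enzyme that serves the anaphase-promoting complex. Its normalized counts were 152, 111, 426 and 103 in the primary tumors and 469.7, 581, 206 and 879 in the metastatic tumors, a log2 fold change of 1.42 ± 0.56 with an exact two-sided permutation p of 0.0571. Metastatic CR2 was the highest tumor, and metastatic CR1 lay below primary CR1. Espl1 (separase), Pttg1 (securin, its inhibitor) and Cdca3, which takes part in the destruction of Wee1, had log2 fold changes of 0.76 ± 0.42, 0.85 ± 0.59 and 0.76 ± 0.55.

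The chromosomal passenger complex corrects wrong attachments and holds the kinase Aurkb, its scaffold Incenp, and Birc5 (survivin) and Cdca8 (borealin), which place it on chromatin. Aurkb had 114, 101.5, 340.0 and 103 in the primary tumors and 331, 309.9, 191 and 360.1 in the metastatic tumors. In Aurkb, primary CR1 exceeded every metastatic tumor but CR2, and the log2 fold change of 0.85 ± 0.44 did not pass the unadjusted threshold. Cdca8 had 107, 97.3, 247 and 115 in the primary tumors and 234, 309.9, 194 and 392 in the metastatic tumors. Its log2 fold change was 0.99 ± 0.38, with an unadjusted p-value under 0.05 in edgeR and an exact two-sided permutation p of 0.0857. In Birc5 the log2 fold change was 1.05 ± 0.52, which passed the unadjusted threshold with phenotype as a covariate but not without it. Incenp stood apart from its partners, with 974, 820.4, 635 and 599.7 in the primary tumors and 924, 984, 569 and 782 in the metastatic tumors and a log2 fold change of 0.11 ± 0.24. Its primary and metastatic values overlapped throughout.

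Both genes of the chromosome surface passed the unadjusted threshold. Mki67 encodes Ki-67, which coats mitotic chromosomes and is the standard marker of dividing cells (ENSMUSG00000031004, mm10 chr7:135689784-135716361, minus strand). It had 2538, 1498, 3887 and 2040.0 in the primary tumors and 6277, 4717, 4792 and 8506 in the metastatic tumors. Its means were 2491 ± 1023 in primary and 6073 ± 1774 in metastatic tumors (SD, n = 4), and every metastatic tumor exceeded every primary tumor, the nearest being metastatic AS2 and primary CR1. The log2 fold change was 1.29 ± 0.32, and the exact two-sided permutation p of 0.0286 is the smallest that 4 against 4 tumors can give. Cdca2, which brings a phosphatase to chromatin at anaphase, had 161, 123, 364 and 138 in the primary tumors and 387, 393, 265 and 579 in the metastatic tumors, a log2 fold change of 1.04 ± 0.40. Here primary CR1 lay above metastatic CR1, and the exact two-sided permutation p was 0.0571.

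The 9 spindle microtubule genes held both the member that differed most and members that differed least. Ckap2l, a spindle protein, was the member with the largest fold change and the smallest p-value (ENSMUSG00000048327, chr2:129268210-129297212, minus strand). It had 169, 93.0, 245 and 115 in the primary tumors and 467, 441, 297 and 765 in the metastatic tumors. Its means were 156 ± 67.8 in primary and 492 ± 197 in metastatic tumors (SD, n = 4), the tumor types did not overlap, and the log2 fold change was 1.65 ± 0.39 with an exact two-sided permutation p of 0.0286. An antisense gene, Gm14024, shares 2.90% of its windows of 1 read length, and it is not stated whether the counting used strand. Tpx2, which nucleates microtubules around chromosomes and activates Aurka, had 317, 233, 751 and 294 in the primary tumors and 1001, 968, 397 and 1368 in the metastatic tumors, a log2 fold change of 1.22 ± 0.45. Aspm, a protein of microtubule ends at the spindle pole, had 425, 288, 996 and 388 in the primary tumors and 1149.8, 978, 671 and 1711 in the metastatic tumors, a log2 fold change of 1.10 ± 0.42. Hmmr, which helps to assemble the spindle, had 495, 302, 1455 and 326 in the primary tumors and 1542, 1087, 1055 and 2593 in the metastatic tumors, a log2 fold change of 1.28 ± 0.53. In all 3, primary CR1 was above metastatic CR1, and in Aspm and Hmmr it was also above metastatic AS2. The other 3 primary tumors were below every metastatic tumor. The exact two-sided permutation p was 0.0571 for Tpx2 and 0.0857 for Aspm and Hmmr. Ckap2, Tacc3 and Nusap1, which stabilize or bundle spindle microtubules, had log2 fold changes of 1.18 ± 0.53, 0.95 ± 0.43 and 1.13 ± 0.52 and missed the unadjusted threshold, which all 3 passed with phenotype as a covariate. Ckap5, a microtubule polymerase that works with Tacc3, had 4285, 3526, 4824 and 4030.1 in the primary tumors and 4969.6, 4394, 4428 and 5729.7 in the metastatic tumors, a log2 fold change of 0.23 ± 0.17. Numa1, which focuses microtubules at the poles, had 6295, 4917, 4847 and 5538 in the primary tumors and 5392, 5083, 5760.1 and 5216 in the metastatic tumors. Numa1 varied by 8.94% (coefficient of variation over 8 tumors), and its log2 fold change of -0.01 ± 0.16 changed sign with RLE factors, with DESeq2, with a stricter filter and with 4 tumors left out in turn.

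Of the 6 genes of the central spindle and cytokinesis, 4 passed the unadjusted threshold, with a median log2 fold change of 1.07 over the 6. Cit encodes citron kinase, a protein of the midbody (ENSMUSG00000029516, chr5:115845278-116008947, plus strand). It had 177, 56.7, 156 and 109 in the primary tumors and 280.3, 243, 217 and 445 in the metastatic tumors. The tumor types did not overlap, the means were 125 ± 53.5 in primary and 296 ± 102 in metastatic tumors (SD, n = 4), and the log2 fold change was 1.24 ± 0.39 with an exact two-sided permutation p of 0.0286. Cit, with Numa1 and Incenp, was one of the 3 members whose highest primary tumor was AS1 and not CR1. Racgap1, a subunit of centralspindlin, had 632, 456, 1211 and 614 in the primary tumors and 1302, 1413, 937 and 1992 in the metastatic tumors, a log2 fold change of 0.95 ± 0.34. Anln, a scaffold of the contractile ring, had 1365, 1295, 3713 and 882 in the primary tumors and 3714, 4563, 2667 and 7423 in the metastatic tumors, a log2 fold change of 1.34 ± 0.47. In Anln, primary CR1 and metastatic AS1 were nearly equal. Prc1, which bundles the microtubules of the central spindle, had 526, 391, 1425 and 276 in the primary tumors and 1495, 1717, 812 and 1945 in the metastatic tumors, a log2 fold change of 1.18 ± 0.50. In these 3, the only overlap was between primary CR1 and metastatic tumors, and the exact two-sided permutation p was 0.0571 for each. Cep55, which recruits the abscission machinery, and Ect2, the activator of RhoA at the cleavage site, had log2 fold changes of 0.94 ± 0.50 and 0.72 ± 0.50.

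Ckap2l, Mki67 and Cit were thus the 3 members (of 35) in which every metastatic tumor exceeded every primary tumor, and 0.854% of all tested genes did so.

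**Figure D2:**
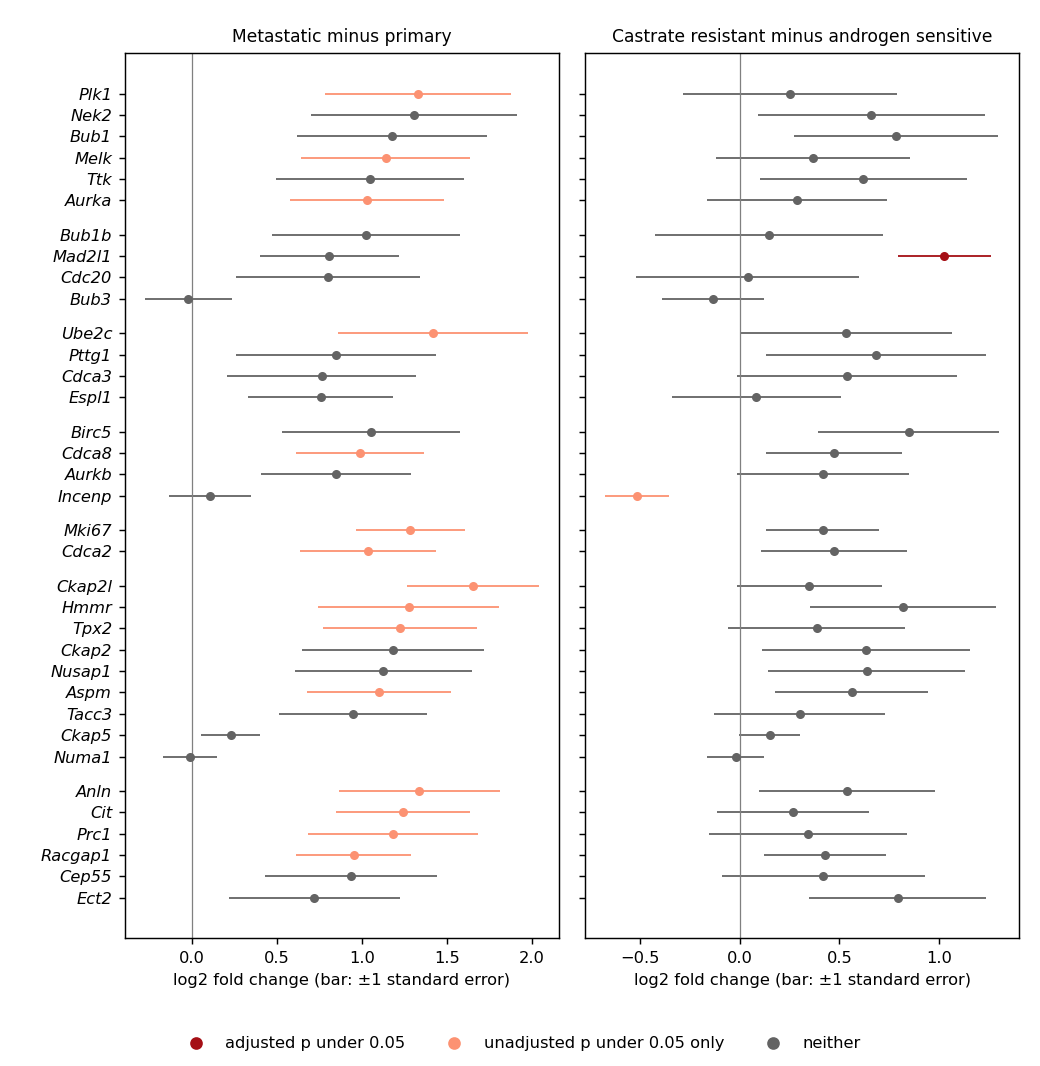
Log2 fold change of each gene with 1 standard error to each side, for metastatic minus primary tumors (left) and CR minus AS tumors (right). On the left 15 genes have an unadjusted p-value under 0.05 and none an adjusted one, and on the right Mad2l1 alone passes the adjusted threshold.

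Levels differed widely between members. Per kilobase of annotated exon, the mean normalized count was highest in Numa1, at 682 in primary and 677 in metastatic tumors. Ckap5 was at 440.3 and 516 per kilobase, Mki67 at 248 and 604, and Bub3 at 256 and 253. Cit was the lowest, at 7.59 and 18.0 per kilobase. Of the 4 genes that differed least between tumor types, Numa1, Ckap5 and Bub3 were among the more abundant members. Mki67 and Anln were also among these, with log2 fold changes of 1.29 and 1.34. A link between level and change was not tested. Numa1 and Ckap5 also have roles outside mitosis.

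**Figure D3:**
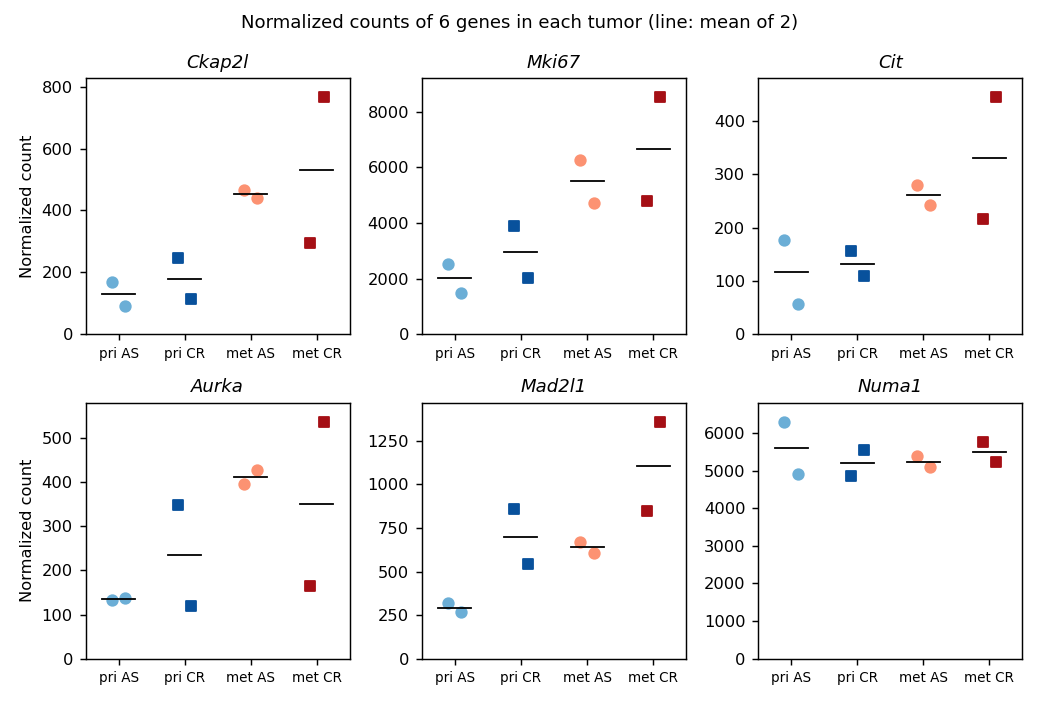
Normalized counts of 6 genes in each tumor, by group (pri, primary; met, metastatic), with a line at the mean of 2 tumors. Ckap2l, Mki67 and Cit show no overlap of tumor types, Aurka shows primary CR1 above metastatic CR1, Mad2l1 is higher in CR tumors within each tumor type, and Numa1 is nearly level.

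The comparison of CR with AS tumors, with tumor type as a term, asked whether the phenotype moved these genes. Mad2l1 rose in CR tumors and was the only member of 35 to pass the adjusted threshold, which 6.16% of all genes passed in that direction. Mad2l1 (ENSMUSG00000029910, chr6:66535390-66547220, plus strand) had 318, 266, 859.7 and 541 in the primary tumors and 671, 606, 847 and 1359 in the metastatic tumors. Within each tumor type both CR tumors were above both AS tumors, and the log2 fold change was 1.03 ± 0.23 with an adjusted p of 0.0275 in edgeR. The exact two-sided permutation p, which does not use tumor type, was 0.0857. Without the tumor type term the adjusted p was 0.116, and it lay between 0.0727 and 0.0839 with either AS tumor of either type or metastatic CR2 left out. Incenp (ENSMUSG00000024660, chr19:9872296-9899551, minus strand) had the opposite order, and every CR tumor was below every AS tumor in the values given above. Its log2 fold change was -0.52 ± 0.16, with an adjusted p of 0.0688 in edgeR and 0.0292 in DESeq2 and an exact two-sided permutation p of 0.0286, whereas 14.6% of all genes were lower in CR at an unadjusted p-value under 0.05. The share of all genes with every CR tumor below every AS tumor was not counted. Over the 35 members the median log2 fold change was 0.42 against -0.01 over all genes, and 32 were above 0. This median rested on one tumor: without primary CR1 it was -0.07, with 15 members above 0 and 20 below. In that fit Mad2l1 (adjusted p 0.0208), Bub3 (0.0289, lower in CR) and Incenp (0.0491, lower in CR) were called in edgeR. The share of all genes called in it is not given here, so these calls do not set the members apart from other genes. With each tumor left out in turn, 481 to 4133 of all genes passed the adjusted threshold.

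Metastatic and primary tumors were also compared within each phenotype, with 2 tumors in each group and one spread for all 4 groups. In AS tumors the members' median log2 fold change was 1.57, against -0.01 over all genes. There, 23 members had an unadjusted p-value under 0.05, all higher in metastatic tumors, against 1.55% of all genes, and every adjusted p was 1. In CR tumors the median was 0.62, and 2 members, Ckap2l and Mki67, had an unadjusted p-value under 0.05, against 2.37% of all genes, with no adjusted p below 0.625. Ckap2 had the largest change in AS tumors, a log2 fold change of 2.24, and 0.44 in CR tumors. For Cdca3 these values were 1.74 and 0.01, for Aurkb 1.57 and 0.24, and for Cep55 1.90 and 0.14. By contrast, Cit had 1.16 and 1.26, and Ckap2l had 1.79 and 1.49.

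**Figure D4:**
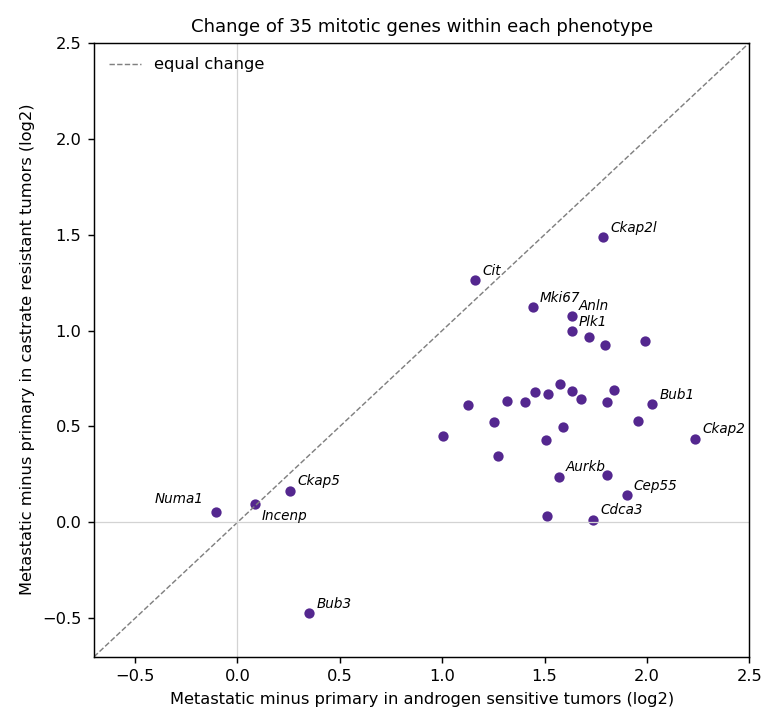
Log2 fold change of metastatic over primary tumors in AS (x axis) and CR tumors (y axis), 1 point for each of the 35 genes. The dashed line marks equal change, and 32 of 35 points lie below it.

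The difference between the phenotypes did not pass a test. The interaction was below 0 in 32 of 35 members, with a median of -0.85 on the log2 scale, but 0 members had an unadjusted p-value under 0.05, where 2.74% of all genes did, and the lowest adjusted p was 0.964 in edgeR. Within CR, the mean log2 normalized count over the 35 genes was 9.53 and 7.87 in primary CR1 and CR2. In metastatic CR1 and CR2 it was 8.86 and 10.05, so metastatic CR1 lay between the primary tumors and metastatic CR2 above both. Without primary CR1 the median interaction was 0.21, without primary CR2 it was -1.60, and without metastatic CR2 it was -1.66.

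Genes that work beside the members were taken from 5 lists of 88 genes, all tested. In them, 10 genes (11.4%) had an unadjusted p-value under 0.05, all higher in metastatic tumors, and none passed the adjusted threshold. The anaphase-promoting complex, the enzyme that Cdc20 and Ube2c serve, had 0 of 17 and a median log2 fold change of 0.03, and the cytokinesis and abscission list of Rhoa, septins and ESCRT genes had 0 of 13 and 0.10. Among genes of the checkpoint, cohesion protection and mitotic entry, 5 of 18 passed, with a median of 0.67. These were Sgo1 (1.16) and Sgo2a (1.28), which protect centromeric cohesion, Ccnb2 (1.23), a cyclin of mitotic entry, Mastl (1.07), a kinase that restrains a phosphatase in mitosis, and Wee1 (0.61), which delays entry. Of 27 spindle pole, augmin and gamma-tubulin genes 2 passed, Dlgap5 (1.32) and Cep192 (0.42), with a list median of 0.17. Of 13 transcription factors of mitotic genes 3 passed, with a median of 0.15: Foxm1 (1.39), Mybl2 (1.29) and Lin9 (0.85), a subunit shared by the repressing and activating complexes. Foxm1 had means of 124 ± 69.8 in primary and 328 ± 130.1 in metastatic tumors (SD, n = 4), and Mybl2 had 80.3 ± 59.6 in primary and 200.3 ± 107 in metastatic tumors (SD, n = 4).

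DNA replication genes, which act earlier in the cycle, gave a smaller value in the same tumors. Of 37 such genes, 1 (Mcm10, 1.15) had an unadjusted p-value under 0.05, and the median log2 fold change was 0.25 against 1.04 for the members. Their mean log2 normalized count was 8.99, 8.84, 9.79 and 8.77 in the primary tumors and 9.57, 9.49, 9.36 and 9.60 in the metastatic tumors, so primary CR1 was the highest of all 8 for replication genes. The difference between these lists was not tested.

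Cell types other than tumor cells were read from marker lists, as summed CPM (counts scaled to a library of fixed size). Lymphocyte markers, from cells that also divide, summed to 0.793 to 2.65 in primary and 0.965 to 2.17 in metastatic tumors, and 0 of 4 tested differed at an unadjusted p-value under 0.05. Lung epithelium markers summed to 0.0479, 0.870, 0.909 and 0.0991 in primary AS1, AS2, CR1 and CR2. In the metastatic tumors in the same order they summed to 0.241, 0.245, 0.205 and 2.47. Hepatocyte markers summed to 7.28 to 26 in primary and 4.02 to 10.9 in metastatic tumors (of 3 tested, 1 higher and 1 lower in metastatic tumors). Endothelial markers summed to 41.8 to 63.6 in primary and 53.8 to 87.8 in metastatic tumors (1 of 5 higher), fibroblast markers to 75.6 to 112 and 59.4 to 99.0 (1 of 7 lower), and macrophage markers to 150.4 to 257 and 92.8 to 221 (0 of 5). Leukocyte markers summed to 27.9 to 41.5 and 19.7 to 48.8 (0 of 3), and skeletal muscle markers to 1.29 to 16 and 2.80 to 15 (1 of 3 higher). The part of these cell types in the results was not tested.

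Some members share reads or overlap other genes. Of all windows of 1 read length, the share found elsewhere with up to 2 mismatches was 11.7% in Cdc20, 11.1% in Ube2c, 8.0% in Plk1, 6.75% in Tacc3 and 6.43% in Nek2, and reads from such windows can be lost or credited to the other gene. Exons of Ube2c, Nusap1, Cdc20, Cdca8, Tacc3, Prc1 and Numa1 overlap a protein-coding gene on the other strand (Tnnc2, Oip5, Elovl1, 9930104L06Rik, Tmem129, Rccd1 and Il18bp).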

How the data were processed

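RNA was measured in 8 Myc-CaP tumors, 4 primary and 4 metastatic. The authors removed ribosomal RNA, made stranded libraries and sequenced both ends of each fragment. By the study's methods, reads were mapped to mm10 with Bowtie and kept where they matched 1 location with up to 2 mismatches, while the submitters' processing notes list CASAVA 1.8.2 and TopHat2 2.0. The counting tool, its strand setting and the annotation release are not given in the sources used here. The deposited values are raw counts per gene, with no normalization. Reads that match several locations are lost, which lowers genes with close copies.

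The main tests used edgeR 4.0.16 in R 4.3.3: filterByExpr, TMM factors, the quasi-likelihood test and Benjamini-Hochberg adjustment over all genes tested, at a threshold of 0.05. The tumor types were compared with no covariate, the phenotypes with tumor type as a term (17104 genes each), and both together in 1 fit of 4 groups (18889 genes). A normalized count is the raw count over the tumor's TMM-adjusted library size, times the mean of these sizes, and CPM uses the same sizes. Single genes were tested by exact two-sided permutation of 4 against 4 tumors. Total counts were 20905806 to 91886163 per tumor, but a single member had as few as 11 in a tumor, and counting error was not separated from the spread between tumors. Of the identifiers, 36343 were found in GENCODE M21, which gave coordinates and exon lengths. Fits were tested on simulated counts.

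The members and gene lists were chosen with earlier results of these data known. Values in every tumor are given for Mki67, Aurka, Aurkb and Plk1, for members with an unadjusted p-value under 0.05 for tumor type or phenotype, and for the 4 with the smallest tumor type change. Of the other lists, up to 10 such genes are named, by smallest p-value. Alternatives were DESeq2 1.42.0, edgeR's exact test, limma 3.58.1 (voom), RLE and protein-coding scaling, other filters and covariates, possible pairings and each tumor left out. Some epithelial markers are not reported here. Figures were drawn with matplotlib 3.10.9.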

Additional observations from a re-analysis of the deposited data

Results flagged for a closer look

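In 16 of the 35 genes, primary CR1 lay so far above the other 3 primary tumors that its gap to the nearest, divided by the range of the 4, passed Dixon's critical value of 0.83. Of the 70 groups of 4 tumors examined, chance flags about 1 in 20 where values spread normally. The ratio was taken on normalized counts without logs, and that share was not checked for them. Since these genes move together, the 16 are not separate events. The share of all genes so flagged was not counted. All 16 are the same tumor. In normalized counts, its value was 349 for Aurka, 340.0 for Aurkb, 675 for Bub1, 364 for Cdca2, 459 for Cdca3, 247 for Cdca8 and 552 for Birc5. It was 751 for Tpx2, 915 for Ckap2, 3713 for Anln, 1435 for Ect2, 1238 for Nusap1 and 1455 for Hmmr. For Tacc3 it was 864, for Cep55 458 and for Ube2c 426. The ratio of gap to range was lowest in Anln, just above that value, and highest, at 0.949, in Aurkb and Birc5. Mki67, Cit, Ckap2l and Plk1 were not among them. In the same tumor, mitochondrial genes took 4.85% of counts, the lowest of the 8, and the mean log2 normalized count of 37 DNA replication genes was 9.79, the highest of the 8. The part of either in these values was not tested.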

How the results depend on the processing

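No gene of the 17104 passed the adjusted threshold between tumor types under any alternative but DESeq2 without primary CR1, chosen after seeing the data, which called 180 genes, 26 of them members, with 31 members at an unadjusted p-value under 0.05. That last count was 15 in the reported fit, 22 with phenotype as a covariate, 24 under limma-voom and 3 to 31 with 1 tumor left out. Over all genes it was 459, 1146, 440 and 224 to 944 in the same order. The median log2 fold change stayed between 0.82 and 1.64 with 1 tumor left out. No paired analysis was possible because the labels carry no replicate numbers and do not match metastases to primary tumors. With each of the 4 possible pairings as a replicate block, 19, 31, 16 and 31 members had an unadjusted p-value under 0.05 and 0 an adjusted one. Over all genes, 887 to 1186 had an unadjusted p-value under 0.05 under the pairings. The sign of 2 genes near 0 changed. Numa1 was at 0.00662 with RLE factors, 0.00633 with at least 10 counts in every tumor, 0.00667 in DESeq2 and -0.0615 to 0.0664 with 1 tumor left out (0.00300, 0.0130, 0.0251 and 0.0664 where above 0). Bub3 was at 0.00210 under limma-voom, 0.0158, 0.0165, 0.0154 and 0.0161 under the pairings, 0.233 in DESeq2 without primary CR1, and -0.15 to 0.227 with 1 tumor left out (0.0623, 0.0821 and 0.227 where above 0).

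Between phenotypes, members past the adjusted threshold numbered 1, 2 with every gene with a count (8 at an unadjusted p-value under 0.05), 0 without the tumor type term, 2 in DESeq2 and 0 to 3 with 1 tumor left out. The unadjusted count was 2, and 2 to 10 with 1 tumor left out. All genes past the threshold numbered 2081, 3544 in DESeq2 and 481 to 4133 with 1 tumor left out. The members' median was -0.0716 to 0.73, and it was below 0 only without primary CR1. For the interaction, DESeq2 called 2 genes and gave 2 members an unadjusted p-value under 0.05. With 1 tumor left out, 1 group holds 1 tumor and has no spread of its own, so only the median is given, -1.66 to 0.206. Without primary CR2 these were 82, 15 and -1.60, and without primary CR1 the median was 0.206. A group left with 1 tumor is assumed to vary like the other groups. The share of all genes at an unadjusted p-value under 0.05 is not given for the alternative fits between phenotypes or of the interaction. The members' unadjusted counts there cannot be set against it. The causes were not tested.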
